A study of Mus musculus with 48 samples.

Results

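Antibody heavy-chain joining was followed on an Igh locus that carries an inversion, in primary bone marrow pro-B cells and in a transformed pro-B cell line depleted of the cohesin-release factor Wapl. The libraries were chosen by their titles: 4 junction lists of inverted marrow (INV BM) and 3 of the inverted line (Wapl-degron, single Igh, INV, IAA and Dox), 7 of the 48 samples of the series. The assay, LAM-HTGTS, starts from primers in the JH1 to JH4 segments (the bait) and reads across each joint into the segment it was joined to (the prey). Each line of a list is 1 junction, with the prey's position and strand on the mm9 mouse genome. The series' design asks how loop extrusion brings distant VH segments to the RAG-bound recombination centre.

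The inverted marrow is labelled C57BL/6 with an Igh inversion and RAG1 deficiency. B220 beads were used to purify the cells, which were then kept 4 to 5 days in SCF (2 ng/mL) and IL-7 (10 ng/mL). The marrow treatment label also names STI-571. Uninverted WT BM (3 lists) has the same labels without the inversion. The titles also name a WT BM replicate 4, which is not among the 3 full lists used here. RAG1 deficiency is listed for all marrow samples and no restoring step is given, although their lists hold joints. The inverted line is a v-Abl transformed B6 line with a Wapl degron, OsTIR1, a single Igh allele, the Emu-Bcl2 transgene and RAG1 deficiency. It received a RAG1/2 retrovirus, then 3 uM STI-571 for 1 day, then 150 uM IAA and Dox with STI-571 for 3 days. Its inversion is named in the title and not in the genotype label. The uninverted single-Igh line (3 lists) had the same genotype label and treatment. The ends of the inversions and the Wapl level are not given in the labels and were not measured here, and whether the inversions of marrow and line are identical is not stated. Nothing says that the replicates came from separate mice or cultures, so p-values measure the spread between these libraries, which may be technical.

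V(D)J recombination builds the heavy-chain exon in steps, D to JH first and then VH to the DJH joint. RAG cuts beside recombination signal sequences, each a heptamer and a nonamer held apart by a spacer, and it pairs a 12-base with a 23-base spacer. In normal pro-B cells the locus contracts, and chromatin is reeled past the recombination centre by cohesin, so that VH signals in convergent orientation are presented in turn. Wapl removes cohesin from chromatin, and its loss lengthens loops. Ighv5-2 is the most D-proximal functional VH segment and is heavily used in cells whose locus does not contract.

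The sequences below, read from the mm9 genome, show which letters lay at the leading junctions of the inverted locus. Each holds 12 bases on the prey's side of the heptamer and then the 39 bases in which a heptamer, a 23-base spacer and a nonamer would lie, 5′ to 3′, with the heptamer in capitals. A plus-strand junction has its signal on the genome's minus strand, and a minus-strand junction on the plus strand. The heptamer was the best match to CACAGTG that starts with CAC within 0 to 10 bases of the junction. Between the leading junction position and the heptamer lie 7 bases at site 117193794, 2 at site 115783296 and Ighv14-2, and 0 at the others in this list. Ighv5-2 and Ighv1-81 lead the plus-strand junctions of marrow, the next 3 lead or mark the minus strand of marrow, and the last 4 are minus-strand sites of the line.
Ighv5-2, plus-strand junctions, chr12:114816676-114816726, minus strand: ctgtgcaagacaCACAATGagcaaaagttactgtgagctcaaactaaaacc
Ighv1-81, plus-strand junctions, chr12:117158451-117158501, minus strand: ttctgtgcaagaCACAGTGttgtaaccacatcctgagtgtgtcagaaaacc
Site 117193794, minus-strand junctions, chr12:117193790-117193840, plus strand: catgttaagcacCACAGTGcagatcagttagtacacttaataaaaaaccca
Site 116843830, minus-strand junctions, chr12:116843819-116843869, plus strand: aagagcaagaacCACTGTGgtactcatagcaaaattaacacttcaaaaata
Site 117150322, minus-strand junctions, chr12:117150311-117150361, plus strand: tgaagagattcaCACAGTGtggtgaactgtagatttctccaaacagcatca
Site 114835527, minus-strand junctions, chr12:114835516-114835566, plus strand: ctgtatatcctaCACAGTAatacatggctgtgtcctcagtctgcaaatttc
Site 115783296, minus-strand junctions, chr12:115783287-115783337, plus strand: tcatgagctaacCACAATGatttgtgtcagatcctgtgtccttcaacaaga
Ighv14-2, minus-strand junctions, chr12:115232673-115232723, plus strand: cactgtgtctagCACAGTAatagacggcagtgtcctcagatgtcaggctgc
Site 116501109, minus-strand junctions, chr12:116501098-116501148, plus strand: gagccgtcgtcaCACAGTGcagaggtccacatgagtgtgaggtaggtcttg

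The inverted marrow lists held 280184 to 785235 junctions, and those of the inverted line 61194 to 328990. Line replicate 1 was the shallowest, with 144 VH junctions against 1149 and 1685 in replicates 2 and 3 and 24237 to 92022 in marrow. No sequencing run, as read from the read names, held both inverted marrow and the inverted line, so run and group cannot be told apart in any value that compares these groups. Inverted and uninverted marrow shared 2 runs, and the inverted and uninverted line shared 1. Cell source, transformation, drug arrest of the cycle and Wapl depletion also go together and cannot be told apart. Between 2.04% and 2.30% of the line's junctions lay on other chromosomes, against 0.0195% to 0.304% in marrow.

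VH joining was scarce in the inverted line. VH junctions, those between 114812453 and 117238672 on chromosome 12, made up 11.7%, 8.74%, 8.65% and 8.404% of all junctions in marrow replicates 1 to 4, and 0.235%, 0.523% and 0.512% in line replicates 1 to 3. The lowest marrow library lay far above the highest line library, and the means of 9.38% ± 1.57 (SD, n = 4) and 0.424% ± 0.163 (SD, n = 3) stood 22.1-fold apart. With each distinct junction counted once, the means were 9.33% ± 1.14 and 0.890% ± 0.3003, 10.47-fold apart. The two-sided exact permutation test gave p = 0.0571, the smallest that 4 against 3 libraries allow, and 0.0743 after Benjamini-Hochberg adjustment over 13 tests. This is the p-value of each share below whose groups do not overlap, so no share could pass 0.05. As a share of D and VH junctions together, which leaves out joints to the JH region, VH took 10.0% ± 2.03 (SD, n = 4) in inverted marrow and 49.8% ± 1.5 (SD, n = 3) in uninverted marrow. The corresponding values were 0.443% ± 0.171 (SD, n = 3) in the inverted line and 4.97% ± 0.208 (SD, n = 3) in the uninverted line.

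Ighv5-2 took most of what VH joining there was in both sources. It held 85.4%, 83.1%, 83.4% and 83.8% of VH junctions in marrow replicates 1 to 4, and 83.3%, 78.9% and 80.8% in the line. The groups overlapped (exact permutation p = 0.114, two-sided). In the uninverted libraries Ighv5-2 held 5.85% to 9.40% of VH junctions in marrow and 3.05% to 3.29% in the line. Junctions at the leading plus-strand site of Ighv5-2 numbered 78147, 23620, 20140 and 37070 in marrow and 120, 894 and 1344 in the line. Per junction of a library in the line they fell by 4.52 on the log2 scale (SE 0.42, limma adjusted p = 2.50e-05); counted as distinct junctions they fell by 3.40.

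**Figure D1:**
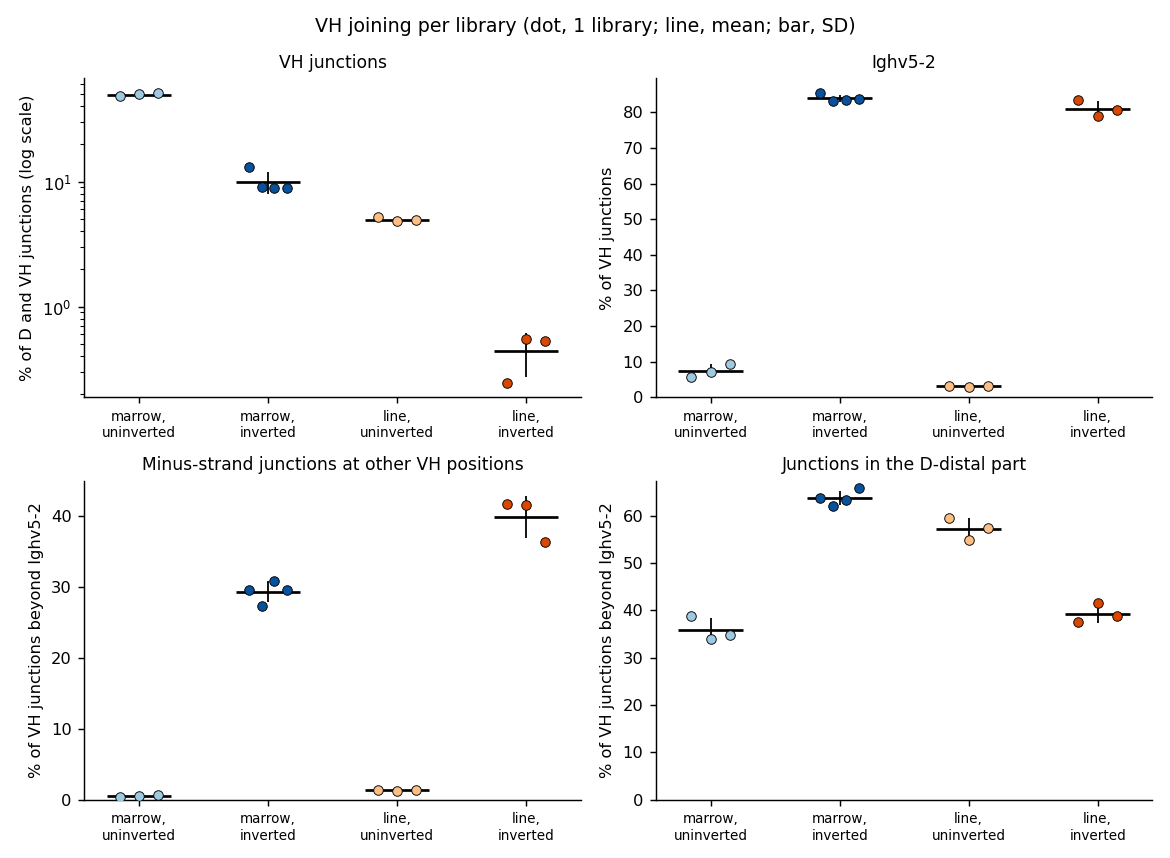
VH joining in each library of the 4 groups, as percent of D and VH junctions (upper left, log axis), Ighv5-2 as percent of VH junctions (upper right), and the minus-strand and D-distal percent of VH junctions beyond Ighv5-2 (lower panels). Points are libraries, horizontal lines means and vertical bars SD. Minus-strand junctions are at 0.427% to 1.43% in the uninverted libraries and at 27.3% to 41.7% in the inverted ones.

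Junctions to VH positions other than Ighv5-2 were few, and a large part of them lay on the minus strand, which is the strand of hardly any VH joint on the uninverted locus. Minus-strand junctions were 29.7%, 27.3%, 30.9% and 29.6% of VH junctions beyond Ighv5-2 in marrow, and 41.7%, 41.6% and 36.4% in the line. All 3 line libraries lay above all 4 marrow libraries, with means of 39.9% ± 3.0 (SD, n = 3) and 29.4% ± 1.49 (SD, n = 4). The line's values rest on 10, 101 and 118 minus-strand junctions. Among junctions with a prey alignment of at least 100 bases the difference in means was 21.7 percentage points, against 10.53 over all junctions. Without the line's leading minus-strand site, 114835527, the groups overlapped, at 25.9% to 29.6% in marrow and 22.8% to 36.4% in the line. Leaving out the leading minus-strand sites of both groups gave no overlap, with 17.7% to 21.2% in marrow and 22.6% to 36.4% in the line. In uninverted marrow the share was 0.533% on average and in the uninverted line 1.34%. With Ighv5-2 included, minus-strand junctions were 4.77% to 5.44% of VH junctions in marrow and 6.94% to 9.83% in the line.

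The D-distal part of the VH region took more of these junctions in marrow than in the line. Positions beyond the midpoint of the region, 116025562, held 63.8%, 62.2%, 63.4% and 65.8% of VH junctions beyond Ighv5-2 in marrow, and 37.5%, 41.6% and 38.9% in the line. The groups did not overlap, and the means were 63.8% ± 1.496 (SD, n = 4) and 39.3% ± 2.07 (SD, n = 3). Without the leading minus-strand site of each group they were 60.7% ± 1.81 and 45.1% ± 3.64, still with no overlap. The uninverted libraries lay the other way round, at 34.0% to 38.8% in marrow and 54.9% to 59.4% in the line.

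The difference in position was plainest on the minus strand. With the region split into 4 equal parts numbered from the D side, part 4 held 68.9% ± 2.77 (SD, n = 4) of minus-strand junctions beyond Ighv5-2 in marrow and 20.1% ± 17.3 (SD, n = 3) in the line. Part 1 held 11.95% ± 1.62 in marrow and 56.1% ± 6.38 in the line. For part 4 the line's libraries were at 40% (4 of 10 junctions), 11.9% and 8.47%, so that replicate 1 sets much of the line's mean; all lay below the lowest marrow library at 66.1%. For part 1 it ran from 50% to 62.7%, all above the highest marrow library at 13.8%. On the plus strand part 4 held 45.3% ± 3.15 in marrow and 36.5% ± 2.0 in the line. Single sites carry much of both ends: site 117193794, described below, holds 2992 of the 6061 part 4 junctions of marrow, and site 114835527 holds 99 of the 135 part 1 junctions of the line. With both sites left out, part 4 held 57.1% ± 2.92 in marrow and 50% (4 of 8 junctions), 5.77% and 15% in line replicates 1 to 3, and part 1 held 11.03% ± 2.66 and 32.2% ± 4.75. These values by part are descriptions with no test.

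**Figure D2:**
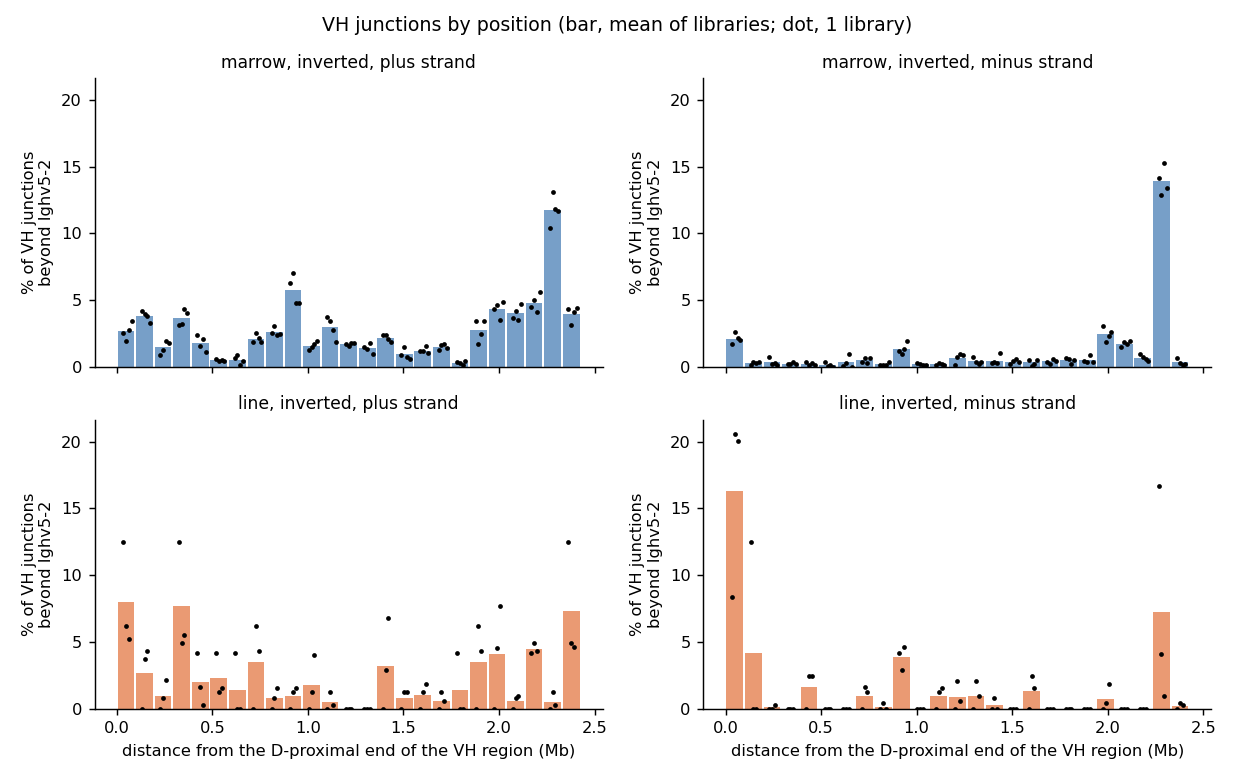
Percent of VH junctions beyond Ighv5-2 in windows along the VH region, by distance from its D-proximal end in Mb, for inverted marrow (upper panels) and the inverted line (lower panels), plus strand left and minus strand right. Bars are means and dots single libraries. On the minus strand the highest bar of marrow is near the distal end and that of the line is nearest the D segments, with libraries that scatter more.

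Few minus-strand junctions lay in annotated VH genes, although 30 of the 120 minus-strand sites tested lie in one, against 90 of the 115 on the plus strand. Of plus-strand junctions beyond Ighv5-2, 87.2% ± 1.17 (SD, n = 4) lay within 20 bp of an annotated VH gene in marrow and 82.8% ± 2.73 (SD, n = 3) in the line. Of minus-strand junctions, 9.87% ± 1.18 did so in marrow and 13.7% ± 11.9 in the line, which ran from 0% to 21.2%. The plus-strand junctions touched 98 of 111 genes in marrow and 34 of 111 in the line. These counts come from 20831 junctions in marrow and 362 in the line and were not adjusted for depth. The Ighv1 family, the large distal family, held 58.9% ± 1.62 of plus-strand annotated junctions beyond Ighv5-2 in marrow and 40.6% ± 3.11 in the line. Of the same junctions Ighv2 held 9.44% ± 1.56 in marrow and 50% (6 of 12 junctions), 11.4% and 14.7% in line replicates 1 to 3.

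Junctions were grouped into sites, clusters of positions on 1 strand with gaps of up to 20 bp, and 235 sites with at least 10 junctions over both groups were tested with limma. Relative to all junctions, 73 sites were lower in the line (31.1% of those tested) and 1 was higher (0.426%) at an adjusted p under 0.05, with a median log2 fold change of -1.82 over all sites. By strand, 60 of 115 plus-strand sites and 13 of 120 minus-strand sites were lower. At 116 sites (49.4%) every marrow library lay above every line library, and at 0 sites (0%) every line library lay above. Of the 235 sites, 176 had no line junction and entered through marrow alone, so the counts are a description of the tested sites. The single site called higher, named because the count is 1, was the minus strand of Ighv12-3, with 8 junctions in the line and 2 in marrow and with groups that overlap.

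The count of calls depends on the scale and on the depth of the line. Of the 73 lower sites, 44 had no junction in the line and 12 had 1 to 3. Scaled to VH junctions, which asks how VH joining is spread over sites, 3 sites were lower (1.28%) and 81 higher (34.5%). Of those 81, 54 had no junction in the line at all, and 74 had none in line replicate 1, so their fitted values depend on the prior count and do not measure use. On that scale the median log2 fold change was 1.66 over the plus-strand sites tested and 3.52 over the minus-strand sites. A value near these medians does not set a site apart. Without line replicates 1, 2 or 3 in turn, 38, 38 and 32 sites were lower. Counted as distinct junctions the number was 41, and with the limma trend method 120.

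The following 3 sites passed the threshold as lower in the line on both scales, but the first 2 of them reached the minimum of 10 junctions through marrow alone, so their values are descriptions with no test. Ighv1-81, a distal VH of the Ighv1 family, had 883, 391, 325 and 685 plus-strand junctions in marrow and 0, 3 and 0 in the line. With libraries pooled it was 242-fold lower per junction in the line, with a 95% counting interval of 82.7 to 1172. It was followed by Ighv1-72, with 462, 189, 129 and 317 junctions in marrow and none in the line, at least 113-fold lower against 3 counts over the group. The third was the minus-strand site at 117193794.

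Site 117193794 led the minus strand of marrow. It held 1408, 469, 459 and 656 junctions in marrow replicates 1 to 4, and 0, 9 and 1 in the line. It took 34.7% ± 2.69 (SD, n = 4) of all minus-strand junctions beyond Ighv5-2 in marrow, and the uninverted libraries had 33, 5 and 5 junctions there in marrow and 1, 4 and 0 in the line. In the line it fell by 7.10 on the log2 scale (SE 0.79, limma adjusted p = 7.64e-05); counted as distinct junctions it fell by 5.56. The site lies 2.38 Mb into the VH region, outside annotated VH genes, and its letters match the heptamer at 7 of 7 bases and the nonamer ACAAAAACC at 5 of 9 after a 23-base spacer. This heptamer is not directly at the leading junction position: 7 bases lie between them.

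Sites 116843830 and 117150322 were used in marrow and had no junction in any other library of the 4 groups. The first had 276, 49, 60 and 98 junctions in marrow, and the second 154, 36, 59 and 115. Against 3 counts over the line they were at least 45.8-fold and at least 37.3-fold lower. They reached the minimum of 10 junctions through inverted marrow alone, so these folds are descriptions with no test. Their heptamers match at 6 and 7 of 7 bases.

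Site 114835527, 0.023 Mb from the D-proximal end of the region, led the minus strand of the line. It had 2, 40 and 57 junctions in the line and 142, 94, 71 and 108 in marrow. Per junction of a library the groups overlapped (log2 fold change -1.06, SE 0.66, limma adjusted p = 0.276). Per VH junction it was higher in the line, by 3.90 on the log2 scale (limma adjusted p = 8.29e-13). The median over the 120 minus-strand sites tested was 3.52 on that scale, so this value is close to that of the other sites. It held 36.0% ± 14.5 (SD, n = 3) of the line's minus-strand junctions beyond Ighv5-2.

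Site 115783296 was the next in the line outside Ighv5-2, with 1, 6 and 14 junctions against 17, 9, 12 and 24 in marrow and 0 in all uninverted libraries. Its share of all junctions overlapped between the groups (log2 fold change -0.01, SE 0.60, limma adjusted p = 0.990). The minus strand of Ighv14-2 had 0, 4 and 8 junctions in the line and 4, 5, 0 and 2 in marrow. Site 116501109 had 0, 6 and 5 in the line and 6, 0, 0 and 1 in marrow. Site 116501109 reached the minimum through the line alone, so its values are descriptions with no test. The minus strand of Ighv14-2 did not pass the test per junction of a library (limma adjusted p = 0.108). Scaled to VH junctions, site 115783296 was higher in the line by 4.56 on the log2 scale (limma adjusted p = 4.53e-06). With the same scaling, the minus strand of Ighv14-2 was higher by 6.25 (limma adjusted p = 1.12e-05). Site 116501109 was then higher by 6.84. All 3 values rest on few junctions, and the median over the minus-strand sites tested was 3.52 on that scale.

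Of the 120 minus-strand sites tested, 18 had a junction in the line and 94 had none in uninverted marrow. Because these sites reached the minimum mostly through marrow, their presence in marrow is no finding; in all, 23 minus-strand sites had a junction in the line. Of the 115 plus-strand sites 41 were seen in the line. The libraries of the line can show only the frequent sites: its lists held 229 minus-strand junctions beyond Ighv5-2 in all, against 8681 in marrow.

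Ighv8-12, the plus-strand site beyond Ighv5-2 with the most junctions in the line over its 3 libraries together, had 413, 122, 83 and 207 junctions in marrow and 0, 11 and 25 in the line (log2 fold change -3.12, limma adjusted p = 0.00409). Scaled to VH junctions the call ended and the direction turned (1.34, limma adjusted p = 0.115). Ighv10-1 had 276, 120, 97 and 177 in marrow and none in the line, at least 71.1-fold lower. Ighv1-84 was likewise at 0 in the line and at least 58.1-fold lower, and Ighv1-82 had 1 junction in the line against 377, 148, 101 and 91. These 3 genes reached the minimum through marrow alone, so their values are descriptions with no test. Ighv1-47 and Ighv1-85 were lower in the line by -2.997 and -2.51 on the log2 scale (limma adjusted p = 0.00411 and 0.00397), but scaled to VH junctions Ighv1-85 was higher, by 1.81, and Ighv1-47 was at 1.42 and no longer passed (limma adjusted p = 0.124). Ighv7-1, with 0, 12 and 17 junctions in the line and 82, 36, 49 and 88 in marrow, did not pass (log2 fold change -1.72, limma adjusted p = 0.0750), and was higher by 2.82 when scaled to VH junctions (limma adjusted p = 0.00435). The minus strand of Ighv5-2 had 397, 86, 78 and 167 junctions in marrow and 0, 12 and 17 in the line (log2 fold change -3.04, limma adjusted p = 0.00423), a call that ended with the sign turned when scaled to VH junctions (1.30, limma adjusted p = 0.136). Medians over the tested sites on the VH scale were 1.66 on the plus strand and 3.52 on the minus strand.

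Signal-like letters lay near the minus-strand junctions of both sources. The trinucleotide CAC, which begins the heptamer and is essential for RAG cleavage, was within 0 to 10 bases on the signal side of 92.0% ± 1.63 (SD, n = 4) of minus-strand VH junctions in marrow, and of 83.7% ± 12.1 (SD, n = 3) in the line. Among all positions of the VH region read the same way the share was 13.6%. The groups overlapped (exact permutation p = 0.171, two-sided). Plus-strand junctions beyond Ighv5-2 had CAC in 90.3% ± 1.69 and 89.3% ± 5.07. In the uninverted libraries 78.8% ± 10.2 of minus-strand VH junctions had it in marrow and 79.1% ± 6.75 in the line. Within 0 to 2 bases, minus-strand junctions beyond Ighv5-2 had CAC in 52.2% ± 2.27 in inverted marrow and 48.9% ± 8.72 in the inverted line. Plus-strand junctions then had it in 74.5% ± 1.27 and 64.9% ± 7.70. Of all positions, 4.17% had it on the minus strand and 4.24% on the plus strand. Of minus-strand sites of marrow with at least 10 junctions and a CAC, 65.1% matched the heptamer at 6 or more of 7 bases, against 9.39% of all positions that have a CAC, and 7.55% matched the nonamer at 6 or more of 9 bases after a 23-base spacer, against 1.80%.

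The heptamer letters at minus-strand junctions were compared after the sites had been seen and with no test. The full consensus CACAGTG lay within 0 to 10 bases of 42.8%, 40.1%, 44.9% and 40.1% of minus-strand junctions beyond Ighv5-2 in marrow, and of 0%, 12.9% and 5.93% in the line. The letters CACAGTA lay at 12.5%, 15.3%, 11.9% and 12.4% in marrow and at 30%, 62.4% and 68.6% in the line, where 81 of 118 junctions had them in replicate 3. The groups did not overlap for either motif. Within 0 to 2 bases, CACAGTG lay at 7.97% to 11.4% in marrow and 0% to 7.92% in the line. Without site 117193794, CACAGTG lay at 13.0% to 17.4% of marrow junctions and 0% to 9.78% of line junctions, and CACAGTA was then the more frequent in every marrow library, at 17.9% to 23.7%. Without both this site and 114835527, the groups overlapped for both motifs, with CACAGTG at 14.6% to 19.1% in marrow and 0% to 17.3% in the line, and CACAGTA at 12.8% to 14.7% and 12.5% to 44.2%. For CACAGTA only line replicate 1, with 1 of 8 junctions, overlapped marrow; the other line libraries were at 44.2% and 43.3%. Of all positions of the region, 0.135% and 0.131% have these letters in reach on that strand. CACAGTA is the reverse complement of TACTGTG, which codes for the conserved tyrosine and cysteine at the 3′ end of VH coding sequence, as in the Ighv14-2 site printed above. The printed letters of site 114835527 also hold CACAGTA, although no annotated VH gene lies within 20 bp of it. With this site 147 of 229 line junctions had CACAGTA, and without it 50 of 130. The uninverted libraries had CACAGTA within 0 to 10 bases of 64.9% ± 2.19 (SD, n = 3) of their few minus-strand junctions in marrow. In the uninverted line it was 64.9% ± 13.4 (SD, n = 3). Within 0 to 2 bases, however, any CAC lay at only 6.05% ± 5.83 of these junctions in marrow and 1.65% ± 0.202 in the line, against 4.17% of all positions. Most of these letters thus lay more than 2 bases from the uninverted junctions.

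**Figure D3:**
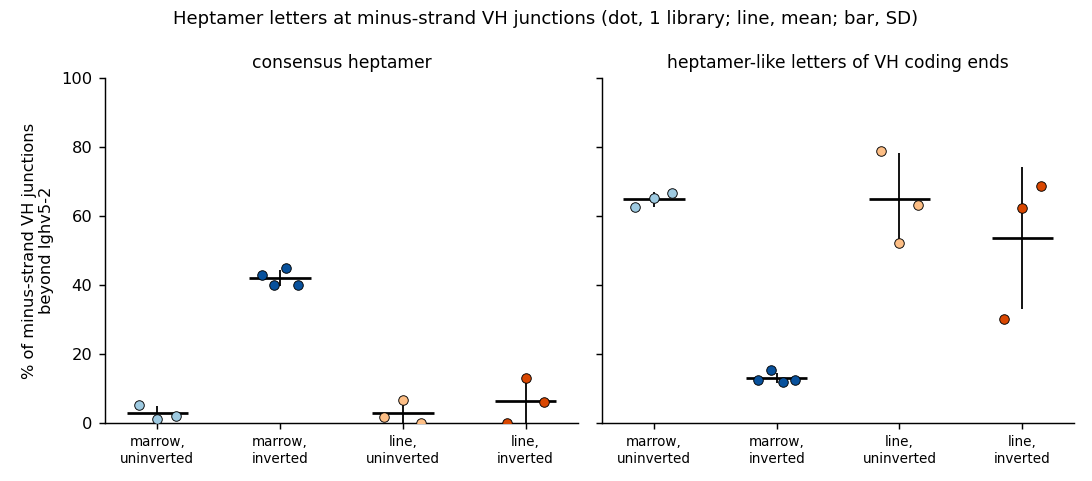
Percent of minus-strand VH junctions beyond Ighv5-2 with the consensus heptamer (left) or with the heptamer-like letters of VH coding ends (right) within 10 bases on the signal side, for 4 groups. Points are libraries, lines means and bars SD. Inverted marrow has more consensus than coding-end letters, an order that turns in all 4 libraries when site 117193794 is left out.

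Junctions also lay beyond the distal end of the annotated VH genes, where the uninverted libraries had few; this measure was chosen after values had been seen. They were 0.247%, 0.193%, 0.189% and 0.195% of all junctions in inverted marrow, and 0.0539%, 0.0583% and 0.0450% in the inverted line. The groups did not overlap and stood 3.93-fold apart, or 2.37-fold counted as distinct junctions. Uninverted marrow had 0.0105% ± 0.00776 (SD, n = 3) and the uninverted line 0.0226% ± 0.0104 (SD, n = 3). Joints within the JH region made up 66.1% and 88.0% of uninverted marrow replicates 2 and 3, against 2.63% to 9.63% in inverted marrow, and lower every share of all junctions there. Per D and VH junction the beyond-VH junctions came to 0.220% ± 0.0375 in inverted marrow, 0.0548% ± 0.00714 in the inverted line, 0.0261% ± 0.0207 in uninverted marrow and 0.0238% ± 0.0110 in the uninverted line. The leading position, 118596803 on the plus strand, lies 1.36 Mb beyond the last VH gene between Ptprn2 and Rapgef5, 80163 bp from the nearest exon of Ptprn2. It had 596, 169, 216 and 274 junctions in inverted marrow and 5, 9 and 19 in the inverted line, against 0, 0 and 0 in uninverted marrow and 0, 2 and 0 in the uninverted line. Its letters match the heptamer at 6 of 7 bases:
Site 118596803, plus-strand junctions, chr12:118596764-118596814, minus strand: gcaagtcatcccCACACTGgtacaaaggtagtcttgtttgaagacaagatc

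On the D side of the VH region, 1 plus-strand site at 114811138, outside annotated genes, had 2201, 758, 612 and 1075 junctions in inverted marrow and 0, 45 and 87 in the inverted line. It was 0.234% ± 0.0333 (SD, n = 4) and 0.0156% ± 0.0139 (SD, n = 3) of all junctions. The uninverted libraries had 705, 392 and 304 junctions there in marrow and 16, 35 and 12 in the line, so the site was used on both loci. Its signal matches the heptamer at 7 of 7 and the nonamer at 8 of 9 bases.

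The D segments took the larger part of joints in both sources. D junctions were 78.1%, 87.9%, 87.7% and 85.5% of all junctions in marrow and 95.6%, 94.9% and 95.1% in the line. The line lay above marrow in all libraries, at 95.2% ± 0.336 (SD, n = 3) against 84.8% ± 4.61 (SD, n = 4). Minus-strand D junctions were rare, at 0.123% of D junctions on average in marrow and 0.261% in the line, with no overlap. Counted as distinct junctions the means were 0.163% and 0.610%. Uninverted marrow was at 0.291% ± 0.230 (SD, n = 3) and the uninverted line at 0.242% ± 0.0630 (SD, n = 3).

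Ighd4-1, the D segment next to the JH segments, was used more in the line. It took 5.53%, 9.57%, 9.69% and 9.77% of D junctions in marrow and 21.7%, 22.9% and 23.3% in the line, with no overlap. Its plus-strand junctions were 1.73 higher on the log2 scale per junction of a library (SE 0.21, limma adjusted p = 3.95e-05). In the uninverted groups it took 8.16% in marrow and 46.1% in the line. Ighd2-3, toward the far end of the cluster, was higher too, at 8.32% ± 0.252 in marrow (SD, n = 4) and 18.8% ± 1.86 in the line (SD, n = 3), a log2 difference of 1.40 (SE 0.09, limma adjusted p = 1.16e-07).

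Ighd1-1, among the most distal and the most used D segments, took 47.5%, 42.9%, 42.5% and 43.2% of D junctions in marrow and 42.6%, 34.7% and 34.9% in the line. The groups overlapped (exact permutation p = 0.114, two-sided), and its plus strand did not pass the test per junction of a library (limma adjusted p = 0.132). It was lower when scaled to D junctions (a log2 difference of -0.29, limma adjusted p = 0.00413). Ighd2-4 was lower in the line, at 6.45% ± 0.945 against 14.4% ± 0.493 in marrow (log2 fold change -0.93, limma adjusted p = 3.95e-05). Ighd2-8 took 8.72% ± 0.738 in marrow and 9.15% ± 0.0955 in the line and did not pass (limma adjusted p = 0.0918).

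Over 27 D segments and strands with enough junctions, 6 were higher (22.2%) and 9 lower (33.3%) in the line at a limma adjusted p under 0.05. The lower ones lie mostly within the cluster: Ighd3-2, Ighd2-7, Ighd2-6, Ighd2-5 and Ighd2-4 were all lower on the plus strand, by -0.93 to -1.62 on the log2 scale. The higher ones included the minus strands of Ighd4-1 and Ighd2-3. The minus strand of Ighd2-7 is also in the count, with 0, 28 and 31 junctions in the line and 0, 0, 1 and 5 in marrow. Its groups overlapped, and it reached the minimum of 10 junctions through the line alone, so its value is a description with no test. Scaled to D junctions, 6 were higher (22.2%) and 10 lower (37%). Ighd2-5, Ighd2-6 and Ighd2-7 are near copies, so junctions may be divided among them with error.

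**Figure D4:**
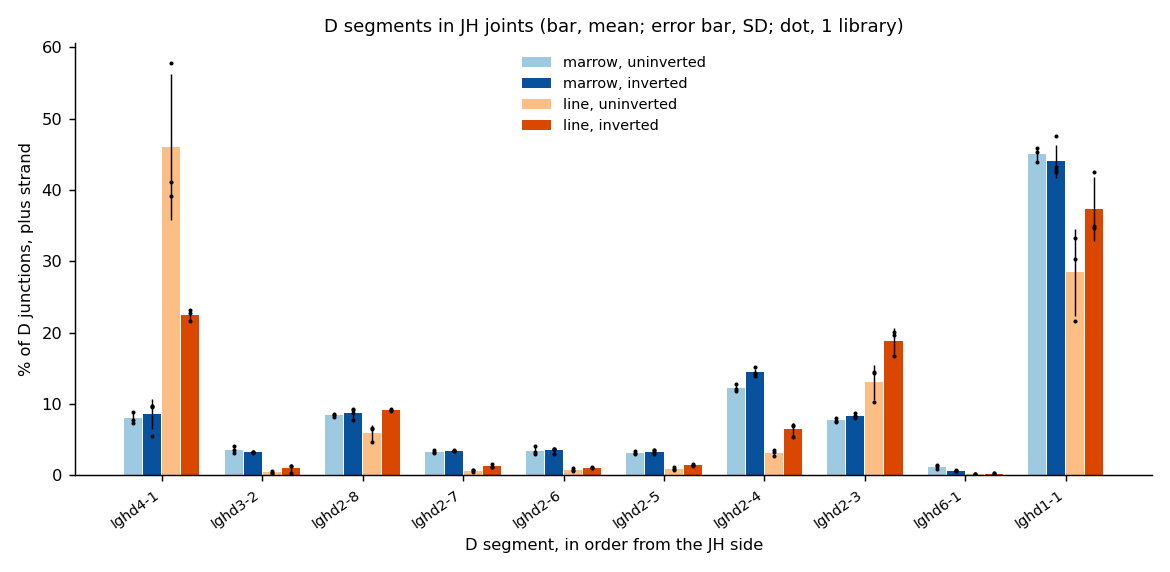
Percent of D junctions on the plus strand at each D segment with a mean over 0.2%, in genomic order from the JH side, for 4 groups. Bars are means, error bars SD and dots libraries. The segments between Ighd4-1 and Ighd2-3 are lower in both line groups than in both marrow groups, except Ighd2-8 of the inverted line at 9.15%.

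The ends of D joints differed between the sources more than between the loci. Bases that match neither the JH nor the prey alignment were present in 85.8%, 84.9%, 85.0% and 84.7% of D joints in marrow and in 10.8%, 19.15% and 19.04% in the line. The groups lay far apart, at 85.1% ± 0.516 (SD, n = 4) and 16.3% ± 4.77 (SD, n = 3). Counted as distinct junctions the means were 86.4% ± 0.637 and 27.7% ± 4.30. Uninverted marrow had them in 84.8% ± 0.389 of plus-strand D joints and the uninverted line in 21.0% ± 4.62. In the line 64.5% ± 5.93 of plus-strand D joints had bases shared by both alignments, against 7.73% ± 0.267 in marrow. Bases added without a template are the product of terminal transferase, an enzyme of normal pro-B cells, whose level was not measured here.

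In VH joints the bases in between can include a D segment. They were present in 99.4% ± 0.0460 (SD, n = 4) of VH joints in marrow and 90.9% ± 4.43 (SD, n = 3) in the line, with no overlap. The median length was 18 bases for plus-strand joints beyond Ighv5-2 in every marrow library, and 11.8 on average in the line. Minus-strand joints had a median of 17.3 bases in marrow and 10.3 in the line. Of inserts of 8 bases or more, those of minus-strand joints held a run of 8 bases of a D segment in its genomic orientation in 77.4% ± 2.41 in marrow and 99.5% ± 0.849 in the line, against 1.61% and 2.75% for runs of the D letters in reversed order, taken as background. For plus-strand joints beyond Ighv5-2 the shares were 75.7% ± 1.13 and 92.4% ± 5.82. The line's minus-strand values rest on 8, 52 and 68 such inserts, of 10, 101 and 118 joints in replicates 1 to 3. Shorter inserts were not searched for D runs. The lists hold no gap over 30 bases, so longer inserts were not seen.

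**Figure D5:**
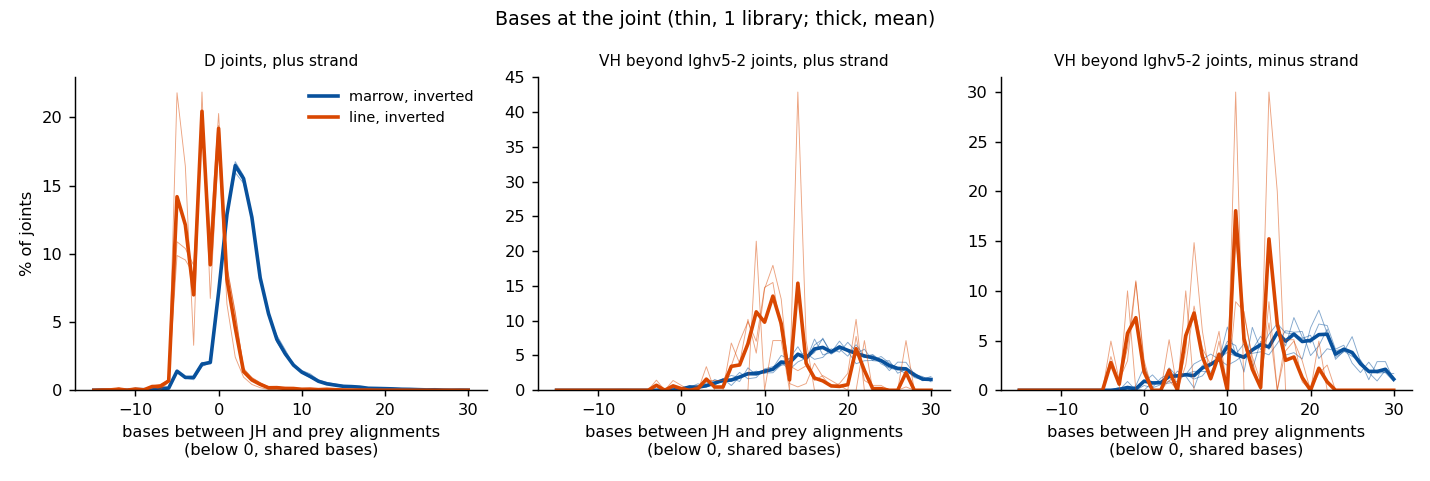
Percent of joints by the number of bases between the JH and prey alignments (values below 0 are shared bases), for plus-strand D joints and for plus- and minus-strand VH joints beyond Ighv5-2. Thin lines are libraries and thick lines means. D joints of marrow peak above 0 and those of the line at and below 0, and the line's VH curves are jagged because they rest on few junctions.

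Trimming of the prey end followed the same division for D segments. The last base of Ighd1-1 was kept in 19.97% ± 0.769 (SD, n = 4) of its joints in marrow and 53.1% ± 5.81 (SD, n = 3) in the line, and that of Ighd4-1 in 34.2% ± 2.50 and 54.6% ± 3.67. The last base of Ighv5-2 was kept in 35.2% ± 1.21 and 31.3% ± 2.80, and in 38.9% ± 1.58 (SD, n = 3) in uninverted marrow and 39.03% ± 3.14 (SD, n = 3) in the uninverted line. Of the JH segments, Ighj4 was the bait end of 33.0% ± 4.34 (SD, n = 4) of the VH joints that could be assigned in marrow, and of 0%, 21.6% and 23.8% in line replicates 1 to 3. Ighj1 was the bait end of 100% of the D and VH joints of line replicate 1, against 45.8% and 53.2% of D joints in the line's other libraries and 25.5% to 32.0% in marrow. Line replicate 1 also had the lowest share of D joints with inserted bases, 10.8%; the part of the bait end in the joint and D values was not tested.

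Whether the inversion acted differently in the sources was tested per site as an interaction over all 4 groups. Of 362 sites, 2 were positive (0.552%) and 14 negative (3.87%) at a limma adjusted p under 0.05; a negative value means that the inverted line was lower than the other 3 groups would give. With the sequencing run as a block, none was positive or negative, and 46 sites had an unadjusted p under 0.05; with the block and scaled to VH junctions, 9 were positive and 0 negative, with 75 sites at an unadjusted p under 0.05. In the blocked fit the line's inversion effect rests on the only run that holds both of its groups, with 1 uninverted and 2 inverted libraries. The negative sites include 116843830 and 117150322, which are at 0 in the other 3 groups and entered through inverted marrow alone, so their calls show nothing beyond that. Without the block, site 117193794 had -6.66 (limma adjusted p = 0.00563), and with it -6.06 (limma adjusted p = 0.185). Ighv5-2 did not pass on the plus strand (-1.48, limma adjusted p = 0.262), but was positive when scaled to VH junctions (1.15, limma adjusted p = 0.00824), a call that the run block ended (1.09, limma adjusted p = 0.248). The main scale, all junctions, includes the JH-region joints that fill uninverted marrow replicates 2 and 3. Scaled to VH junctions, 47 sites were positive and 4 negative. Without uninverted marrow replicate 1, 65 were negative; without line replicates 2 and 3 in turn, 5 and 4; and without uninverted line replicate 1 or 3, 8.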

How the data were processed

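The authors' deposited junction lists give chromosome, position and strand, which are other values than counts and carry no normalization. Per the submitters' processing notes reads were aligned with Bowtie2 to mm9 (no version given). The counts used here are lines of those lists. The files carry no molecular identifiers, so 1 joining event may be listed several times, and each share was also computed from distinct junctions (position, strand and both alignment ends).

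Regions came from the GENCODE annotation of the same build, with gene symbols from RefSeq (112 of 112 VH and 20 of 21 D segments). Groups and replicate numbers came from the titles. Two-sided exact permutation tests (scipy 1.17.1) compared shares and limma 3.58.1 compared counts per site or D segment (voom, all junctions as the library size, prior count 0.5); its fit shares its estimate of spread over sites. Sites under 10 junctions were left out. The limma step was tested on simulated data. The interval of a fold takes exact Poisson limits at 95% for the line's count and covers counting error only. Measures of heptamer letters, trimming, D runs and junctions beyond the VH region were chosen after seeing the data. A fold against 0 uses 3 counts over the group.

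Named sites are, in each group, the 5 most used of each strand, the 5 largest changes in each direction among called sites without overlap, Ighv5-2, Ighd4-1, Ighd1-1 and the 3 most used other D segments. Members, sites and tests were chosen with earlier results of these data known. Same-numbered marrow and line libraries come from different sources and were not treated as pairs in the main tests. The correlations of their deviations were 0.128, 0.00283 and 0.139, and those of differently numbered libraries ran from -0.172 to 0.124. These small correlations cannot decide whether the numbers pair them. How reads of near-identical VH genes were placed is not given in the sources used here. Off-target lists were not used here.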

Additional observations from a re-analysis of the deposited data

Results flagged for a closer look

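Marrow replicate 1 stood apart from the other 3 inverted marrow libraries in 4 of 13 shares, by the size of its gap to the nearest of the others. Its VH share of all junctions was 11.7%, against 8.404% to 8.74% in the others. Ighd4-1 took 5.53% of its D junctions, against 9.57% to 9.77%, and Ighd1-1 took 47.5%, against 42.5% to 43.2%. Its share of junctions beyond the VH region was 0.247%, against 0.189% to 0.195%. It was also the deepest of the 4 libraries and the only one of its sequencing run, which it shared with uninverted marrow replicate 1, while the other 3 came from 1 run; the part of depth and run was not tested. Chance alone flags about 1 in 20 groups.

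The inversion's effect differed between line and marrow, by the limma interaction without a run block, at 6 of the named sites: Ighv8-12 (-4.40), Ighv10-1 (-5.51), Ighv1-84 (-4.89) and the minus-strand sites 117193794 (-6.66), 116843830 (-8.47) and 117150322 (-8.18). The last 2 sites are at 0 in all 9 libraries of the other groups and passed the minimum through inverted marrow alone, so their values follow from that selection and from the prior count. Scaled to VH junctions, the other 4 did not pass (limma adjusted p = 0.0692 to 0.269). Of these, Ighv10-1 and Ighv1-84 are at 0 in the inverted line, so the size of their values also depends on the prior count. With the sequencing run as a block none of the 6 passed (limma adjusted p = 0.134 to 0.216).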

How the results depend on the processing

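The limits of the comparison are the depth of the line (144, 1149 and 1685 VH junctions), the scale, and the lack of any run that holds both groups. For line against marrow, the fit with run as a block was not run for that reason. All 19 alternative settings of the 13 shares kept direction and side of the threshold, which no share could pass; the same holds for each library left out. The distal share kept its difference at -26.5 percentage points counted as distinct junctions and at -22.7 with the border at 2 parts in 3 of the region. For VH sites, scaling to VH junctions gave 81 higher and 3 lower, and to those beyond Ighv5-2 28 higher and 2 lower. A minimum of 50 junctions gave 0 higher, distinct junctions 41 lower, and limma trend 0 higher and 120 lower. The replicate block gave 2 higher and 104 lower VH sites, 72 of them among the 73, and 4 lower D segments. For the interaction, scaling to VH junctions gave 47 positive and 4 negative, distinct junctions 29 positive, the replicate block 39 negative, and the sequencing run as a block, an alternative chosen after seeing the data, 0 positive and 0 negative, or 9 and 0 when also scaled to VH junctions. Leaving out 1 library gave 0 to 2 higher and 32 to 83 lower VH sites, 5 to 6 higher and 7 to 10 lower D segments, and 0 to 5 positive and 4 to 65 negative interactions. Ighv1-85 turned to 1.81 when scaled to VH junctions, near the median of 1.66 over the plus-strand sites tested on that scale. Of 173 values of named sites under other settings, 136 kept their call, 16 became and 20 ceased to be called and 1 turned while called; 18 of the 173 differ in sign from the value reported. The causes were not tested.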
